A study of Mus musculus with 4 samples.

Results

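Accessible DNA inside the introns of protein-coding genes was examined in mouse natural killer (NK) cells profiled by DNase-seq. Touching peaks of all libraries were merged on the autosomes, and a merged region was called intronic when it lay wholly inside a protein-coding gene of GENCODE M21, overlapped no exon of any gene and lay more than 1 kb from every annotated transcript 5′ end of any gene type. This rule kept 20401 of 75963 autosomal regions, or 26.9%. By the longest transcript of the host gene, 6912 of them (33.9%) lay in a first intron and 12719 (62.3%) in a later intron. A further 190 were first intron of one gene and later intron of another, and 580 lay outside the longest transcript. The median width was 200 bp, with a range from 21 to 1520 bp.

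The study holds 4 DNase-seq libraries in a single group: primary NK cells of adult, virgin, female B6CASTF1/J mice (an F1 cross of C57BL/6J and CAST) aged 2 months, with no treatment named. The labels number the libraries as biological replicates 1 to 4, each with its own biosample but with 1 shared donor identifier, and state neither the tissue nor a sorting gate. No condition was therefore compared with another, and the SD over 4 libraries is the variation among these libraries, which may in part be technical. All positions are on GRCm38/mm10.

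DNase I cuts DNA where nucleosomes have been displaced, and stretches inside a cut-rich region that a bound protein shields appear as footprints. Introns hold many enhancers, silencers and insulator sites, and the first intron, next to the promoter, is known for elements that act on the host gene. NK cells are cytotoxic lymphocytes of the innate immune system, and their enhancers are known to be bound by T-box, RUNX and ETS factors.

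The sequences below show what the regions contain. The first set are sites in which a motif match, in capitals, lay wholly inside a footprint of all 4 libraries, each taken from the region of highest mean signal with such a match. They are read 5′ to 3′ on the strand of the match from the GRCm38.p6 assembly as distributed with RefSeq. The CTCF site was chosen from 243 such matches, and each of the other sites from only 2 matches. CTCF is the insulator zinc finger protein, RUNX, ETS and T-box proteins are lymphocyte regulators, AP-1 is formed by FOS, JUN and BATF proteins, and KLF proteins are zinc finger factors. The KLF site lies in sequence that is 100% masked as repeat, and the other sites hold no repeat.
CTCF site in intron 2 of Card19, chr13:49205852-49205893, minus strand: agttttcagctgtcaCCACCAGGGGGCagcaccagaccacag
RUNX site in intron 1 of Cmip, chr8:117322257-117322294, plus strand: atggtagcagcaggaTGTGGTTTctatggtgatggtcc
ETS site in intron 18 of Dapk1, chr13:60738080-60738117, plus strand: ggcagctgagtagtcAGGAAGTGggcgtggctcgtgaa
T-box site in intron 3 of Xxylt1, chr16:30977422-30977459, plus strand: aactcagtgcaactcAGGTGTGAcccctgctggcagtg
AP-1 site in intron 2 of N4bp1, chr8:86856480-86856516, plus strand: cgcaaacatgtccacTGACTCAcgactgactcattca
KLF site in intron 1 of Rapgef2, chr3:79237851-79237888, plus strand: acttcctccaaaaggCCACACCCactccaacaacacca

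The second set are whole regions, shown because the values below turn on them: the strongest intronic region of an NK receptor, of a secretory granule gene, of an NK transcription factor and of a cytokine receptor. They are read on the strand of the host gene, with motif matches on either strand in capitals. Slamf7 encodes an activating SLAM family receptor, and its region holds 1 RUNX match. Srgn encodes serglycin, the proteoglycan of cytotoxic granules, and its region holds 1 CTCF match. Bach2 encodes a transcriptional repressor of lymphocyte differentiation, and its region holds 1 E-box. Il18r1 encodes a chain of the interleukin-18 receptor, and its region holds 1 AP-1 match.
Slamf7, intron 2, chr1:171643681-171643940, minus strand: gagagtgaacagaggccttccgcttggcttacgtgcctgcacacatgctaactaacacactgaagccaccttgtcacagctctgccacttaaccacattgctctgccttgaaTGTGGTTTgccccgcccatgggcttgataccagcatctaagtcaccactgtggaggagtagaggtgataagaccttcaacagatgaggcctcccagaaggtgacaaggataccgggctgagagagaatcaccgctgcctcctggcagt
Srgn, intron 2, chr10:62500281-62500492, minus strand: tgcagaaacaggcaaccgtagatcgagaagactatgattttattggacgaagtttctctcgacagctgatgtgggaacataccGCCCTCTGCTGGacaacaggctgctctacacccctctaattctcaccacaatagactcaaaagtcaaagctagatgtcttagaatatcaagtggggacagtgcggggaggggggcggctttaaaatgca
Bach2, intron 1, chr4:32258161-32258460, plus strand: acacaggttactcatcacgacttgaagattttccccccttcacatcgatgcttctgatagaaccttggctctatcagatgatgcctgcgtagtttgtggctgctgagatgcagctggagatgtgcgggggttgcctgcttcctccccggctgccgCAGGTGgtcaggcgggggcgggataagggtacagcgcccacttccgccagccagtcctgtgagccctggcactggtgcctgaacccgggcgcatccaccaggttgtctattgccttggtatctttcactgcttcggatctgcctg
Il18r1, intron 4, chr1:40479501-40479720, plus strand: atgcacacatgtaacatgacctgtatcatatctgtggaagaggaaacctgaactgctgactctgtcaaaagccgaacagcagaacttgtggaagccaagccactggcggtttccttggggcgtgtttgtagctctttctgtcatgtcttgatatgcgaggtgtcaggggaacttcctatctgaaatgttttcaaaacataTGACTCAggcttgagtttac

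The third set come from the 10 intronic regions with the highest mean signal and show that these are not of one kind. Mxi1 encodes an antagonist of MYC, and its region holds 1 CREB match. Ccnd3 encodes cyclin D3, and its region holds 1 AP-1 match and 1 E-box. The Il31ra and Cmss1 regions are different in that the same sequence, at an identity of at least 90% over at least 80% of the region, was found in 6 and 15 other places on the assembled chromosomes. Il31ra encodes a chain of the interleukin-31 receptor.
Mxi1, intron 1, chr19:53314221-53314460, plus strand: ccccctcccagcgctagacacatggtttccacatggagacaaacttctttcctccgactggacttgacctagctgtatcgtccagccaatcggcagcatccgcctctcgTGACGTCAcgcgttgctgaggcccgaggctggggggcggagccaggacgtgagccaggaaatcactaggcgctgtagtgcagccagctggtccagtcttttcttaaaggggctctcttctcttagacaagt
Ccnd3, intron 1, chr17:47511181-47511440, plus strand: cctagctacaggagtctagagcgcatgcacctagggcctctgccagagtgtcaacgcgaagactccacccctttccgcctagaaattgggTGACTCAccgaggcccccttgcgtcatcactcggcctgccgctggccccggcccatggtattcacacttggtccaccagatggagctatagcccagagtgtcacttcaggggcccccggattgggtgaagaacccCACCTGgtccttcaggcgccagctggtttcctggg
Il31ra, intron 1, chr13:112578161-112578320, minus strand: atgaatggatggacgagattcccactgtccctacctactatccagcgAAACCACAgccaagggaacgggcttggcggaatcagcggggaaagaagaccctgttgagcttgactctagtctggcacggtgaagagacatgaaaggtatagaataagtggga
Cmss1, intron 1, chr16:57391321-57391420, minus strand: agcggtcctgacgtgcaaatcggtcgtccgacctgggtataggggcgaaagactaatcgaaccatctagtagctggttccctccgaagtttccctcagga

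The cell type was checked at gene starts, which the intronic regions do not touch. At least 3 of the 4 libraries had a peak within 1 kb of the start for 6 of 8 NK markers (Ncr1, Eomes, Prf1, Gzmb, Nkg7 and Il2rb), for 4 of 8 T cell markers (Cd3d, Cd3g, Cd5 and Cd28), for 5 of 8 B cell markers (Cd79b, Ms4a1, Pax5, Ebf1 and Cd22) and for 0 of 8 myeloid markers. The T cell genes Cd3e, Cd4 and Cd8a had no start peak in any library, and neither had any of the 8 myeloid markers. The number of B cell markers with a start peak was 5, 7, 3 and 7 in replicates 1 to 4, so it was lowest in replicate 3. The same count for NK markers was 6, 7, 8 and 6, highest in replicate 3. The part of cells other than NK cells in the results below was not tested.

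The libraries differed in how many intronic peaks they held. Replicates 1 to 4 had 43014, 46244, 67437 and 35219 autosomal peaks. Each peak took the class of the merged region that held it. By this class, 9036, 10089, 18465 and 6616 of the peaks were intronic, which is 21%, 21.8%, 27.4% and 18.8% of each library (22.2% ± 3.65, SD, n = 4). Replicate 3 stood apart with about the count of replicates 1 and 2 together. The authors' peak signal has no stated unit, and the number of reads behind each library is not given in the files, so values of different libraries are set side by side with that limit, and most comparisons below are made within a library.

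The share of intronic regions found in several libraries lay below that of regions at transcript starts. Of the 20401 regions, 7618 (37.3%) had a peak in at least 3 of the 4 libraries and are called recurrent here, against 47.1% of all autosomal regions. The share was 41.0% for intergenic regions, defined as outside every gene and more than 1 kb from every 5′ end, and 59.0% for regions at transcript starts. All 4 libraries shared 4872 intronic regions (23.9%). Another 10094 (49.5%) were found in 1 library alone, and 8139 of these came from replicate 3. Without replicate 3 there were 12556 intronic regions, and 39.3% of them were found in each of the other libraries, beside 40.6% of intergenic regions and 59.0% of start regions. The share of a library's intronic peaks that all others had was 55.8%, 50.1%, 27.3% and 76.3% in replicates 1 to 4, and differed from that of intergenic peaks by -1.79 percentage points ± 2.42 (SD, n = 4, exact sign-flip permutation test, two-sided p = 0.25). This difference was -3.00 without replicate 4, -1.07 without replicate 1 and -3.81 without a limit on the distance to 5′ ends. With 4 libraries this test cannot give a p below 0.125. It is applied to 1 value per library throughout.

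The deposited list of single bases with a low false discovery rate showed how far the missing peaks were borderline. Of the intronic regions without a peak in a library, 6.15%, 6.84%, 21.7% and 3.60% held a base with a false discovery rate under 0.05 in replicates 1 to 4. Among regions found in 1 library alone, 1174 (11.6%) held such a base in another library. Counting a peak or such a base, 8415 regions (41.2%) were present in at least 3 libraries. Most single-library regions thus had neither in the other libraries.

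Intronic peaks were about as strong and as often footprinted as intergenic ones, but denser. The median peak signal of intronic peaks was 0.858, 0.846, 0.748 and 0.817 in replicates 1 to 4, and that of intergenic peaks was 0.905, 0.886, 0.781 and 0.826. Intronic peaks were the weaker in each library, by 0.056 ± 0.027 on the log2 scale (SD, n = 4, exact sign-flip permutation test, p = 0.125, the smallest it can give), and by more without the distance limit (-0.13). A footprint lay wholly inside 77.3% ± 0.697 of intronic and 77.2% ± 0.901 of intergenic peaks (SD, n = 4). Footprinting followed signal: with each library's peaks ranked by signal in 4 equal classes, the share of intronic peaks with a footprint was 48.5%, 83.1%, 95.3% and 99% from the weakest class to the strongest. Per megabase of sequence that could hold such a peak, introns had 1.41 ± 0.119 times as many peaks as intergenic sequence (SD, n = 4).

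First introns were more densely accessible than later introns. Over 204.4 Mb of eligible first-intron sequence (introns without exons of any gene and without 1 kb around each 5′ end) the density was 14.2, 16.3, 31.1 and 11.4 peaks per Mb in replicates 1 to 4. Over 591.6 Mb of later introns it was 9.78, 10.8, 19.3 and 6.80 peaks per Mb. The ratio of first to later was 1.45, 1.52, 1.61 and 1.67, above 1 in each of the 4 libraries, with a mean of 1.56 ± 0.098 (SD, n = 4, exact sign-flip permutation test of the log2 ratio, p = 0.125). The libraries differed more than the introns did, but the ratio within a library varied little. Density also declined along the gene, from 18.2 peaks per Mb in intron 1 to 13.9, 12.6, 12.2 and 10.7 in introns 2 to 5, and 10.5 in intron 6 and beyond (means of 4 libraries). Last introns had 12.9 peaks per Mb and those between the first and last 11.6.

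First-intron peaks had a slightly higher median signal than later-intron peaks. The median signal of first-intron peaks was 1.09 ± 0.032 times that of later-intron peaks (SD, n = 4, above 1 in each library, exact sign-flip permutation test, p = 0.125). The share with a footprint was 77.4% ± 1.45 in first and 77.2% ± 0.583 in later introns, a difference of 0.16 points ± 1.48 (SD, n = 4, exact permutation p = 0.75). The order over all peaks changed with the settings: with regions right up to the 5′ end included, the log2 signal ratio was -0.0073 and the footprint difference -7.58 points, and without replicate 3 the footprint difference was -0.029. At matched signal a footprint was less frequent in first-intron peaks in 3 of 4 signal classes. In the 4 signal classes from weakest to strongest, first minus later introns was 0.26 ± 1.502 points (above 0 in 2 of 4 libraries), -5.06 ± 2.37, -1.39 ± 0.179 and -0.40 ± 0.201, the last 3 below 0 in all 4 libraries (SD, n = 4, exact permutation p = 0.125 for each of the 3). Recurrent regions made up 35.8% of first-intron and 38.2% of later-intron regions, while 24.03% and 23.66% were found in all 4 libraries, so the order depended on how many libraries were required. First-intron regions lay a median of 13.0 kb from the transcript 5′ end, in introns of a median length of 33.4 kb. Later-intron regions lay 54.9 kb away in introns of 13.6 kb.

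The surplus in first introns was largest next to the start. Between 1 and 5 kb from the 5′ end of the longest transcript the density was 30.1 peaks per Mb in first and 17.54 in later introns, a ratio of 1.68 ± 0.119 (SD, n = 4). From 5 to 20 kb it was 21.2 and 16.3, a ratio of 1.30 ± 0.133. From 20 to 100 kb it was 15.6 and 15.4, a ratio of 1.01 ± 0.073 that was above 1 in 2 of 4 libraries (exact sign-flip permutation test, p = 0.75). Beyond 100 kb it was 8.02 and 7.25, a ratio of 1.13 ± 0.084. Within classes of intron length the ratio did not shrink in this way: it was 1.76, 1.86, 1.84 and 1.76 for introns under 5 kb, of 5 to 20 kb, of 20 to 100 kb and longer.

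Accessibility of the host's own start went with intronic accessibility. A host start was called open in a library when that library had a peak within 1 kb of a 5′ end of the gene. In introns of hosts with an open start there were 19.0 peaks per Mb, and in those of hosts with a closed start 5.31, a ratio of 3.50 ± 0.318 (SD, n = 4, above 1 in 4 of 4 libraries, exact sign-flip permutation test, p = 0.125). The ratio was 5.33 ± 0.756 for first introns and 2.91 ± 0.210 for later introns. Hosts with an open start held 83.0% ± 2.17 of the intronic peaks but 58.4% ± 1.84 of the eligible sequence.

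The order of first and later introns depended on the state of the start. Under open starts the first-to-later ratio was 1.75 ± 0.095, above 1 in each library, and under closed starts it was 0.964 ± 0.059 (SD, n = 4, exact sign-flip permutation test, p = 0.125 and p = 0.375). Split further by distance, open hosts had the higher density in first introns in all 4 libraries at every distance, with ratios of 1.69 ± 0.168 at 1 to 5 kb, 1.44 ± 0.140 at 5 to 20 kb, 1.33 ± 0.085 at 20 to 100 kb and 1.77 ± 0.101 beyond. Closed hosts had a ratio of 1.16 ± 0.109 at 1 to 5 kb, above 1 in 4 of 4 libraries. Farther out the order was the opposite in all 4 libraries, with 0.774 ± 0.068 at 5 to 20 kb, 0.448 ± 0.044 at 20 to 100 kb and 0.718 ± 0.092 beyond 100 kb (exact p = 0.125 for each of the 8 ratios). The ratio of 1.01 at 20 to 100 kb over all hosts thus combined a surplus under open starts with a deficit under closed ones. At that distance first introns of closed hosts had 3.72 peaks per Mb and their later introns 8.42, against 24.3 and 18.4 in open hosts.

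**Figure D1:**
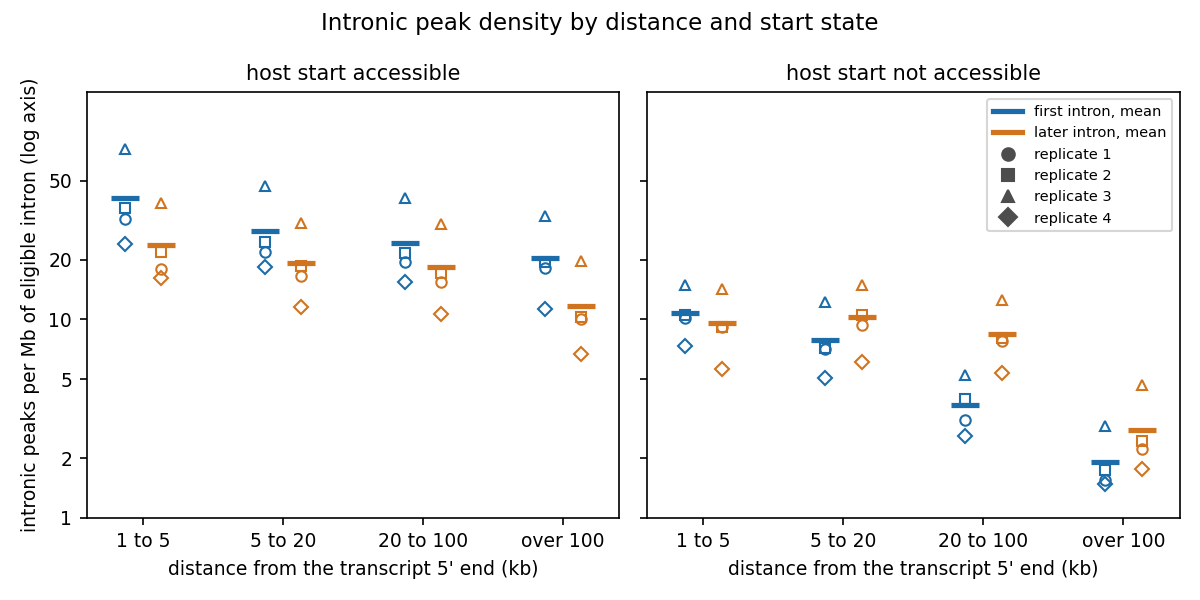
Intronic peaks per Mb of eligible intron (log axis) against distance from the transcript 5′ end in kb, for hosts whose start was open (left) or closed (right) in the same library; symbols are the 4 libraries and bars their means. First introns lie above later introns at each distance under open starts (ratios from 1.33 to 1.77), and below them from 5 kb on under closed starts (ratios from 0.448 to 0.774).

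Intronic regions were spread over many hosts. Of 18384 autosomal protein-coding genes with eligible intron, 6729 had an intronic region in some library and 3914 a recurrent one. Most hosts, 2319, had 1 recurrent region. The 302 hosts with 5 or more held 28.9% of all recurrent intronic regions. A start peak in at least 3 libraries was present in 76.9% of hosts with a recurrent region, in 63.7% of genes with at least 5 kb of eligible intron and in 55.7% of all 20807 genes, and 632 such hosts had no start peak in any library.

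The 10 hosts with the most recurrent intronic regions had between 14 and 22 each. Gse1, a coiled-coil protein gene, had 22, counting 22, 23, 43 and 22 regions in replicates 1 to 4. Arid1b, a subunit of the BAF chromatin remodelling complex, had 18. Foxp1, a forkhead repressor, and Prex1, an activator of Rac GTPases, had 17 each, and 16 of those in Prex1 were found in all 4 libraries. Fyn, a Src family kinase that signals below NK and T cell receptors, had 16, of which 5 were found in all 4 libraries. Prkch, which encodes protein kinase C eta, had 16, and Zmiz1, a transcriptional coactivator, had 15. Ctif, a translation factor, Gas7 and Maml3, a coactivator of Notch signalling, had 14 each. All 14 in Ctif lay in later introns, and its own start had a peak in 1 library only, while the other 9 hosts had an open start in all 4. In these 10 hosts replicate 3 had the most regions, and 0 of their recurrent regions had a near-identical place elsewhere.

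Per length, a different set of hosts came first. Among hosts with at least 5 recurrent regions, Sfi1, a centrin-binding protein gene, had 13 regions in 36.0 kb of eligible intron, or 360.9 per Mb, against 9.22 per Mb over all genes. Tmprss6, a serine protease of iron metabolism, had 7 in 19.9 kb, and all 7 were found in all 4 libraries although the start of Tmprss6 was closed in each. Csk, the kinase that restrains Src family kinases, had 5 in 15.7 kb (318.5 per Mb). Selp, which encodes P-selectin, had 6 in 23.9 kb (251.5 per Mb) with a closed start in each library. Tmem267 had 5 in 14.5 kb, but all 5 had near-identical sequence elsewhere, as had 1 of 13 in Sfi1 and 3 of 9 in Gm44511. The others were Akna, an AT-hook protein gene, Prr5, an mTOR complex member, Ralgds, an exchange factor for Ral, and Kif1bp, with 5 or 6 recurrent regions each and 0 of them repeated. The search for repeated sequence covered the assembled chromosomes only, so copies missing from the assembly could not be seen. Sfi1 had 14, 19, 16 and 14 regions in replicates 1 to 4. Replicate 2 was thus its highest library, while replicate 3 was the highest over all genes. Whether reads from unassembled copies add to the Sfi1 count was not tested.

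The 10 strongest intronic regions differed in how far their signal varied between libraries, and in none of them was 1 library an outlier by Dixon's ratio. The region in Il31ra, printed above, had a signal of 24.3, 23.7, 27.6 and 26.1 in replicates 1 to 4. The regions in Gphn, which encodes the synaptic scaffold gephyrin, and in Cmss1 had 17.0, 17.8, 18.3 and 17.6, and 17.2, 19.3, 15.9 and 17.1. Replicate 3 was the highest in Il31ra and Gphn and the lowest in Cmss1, and the SD over the libraries was 1.80, 0.528 and 1.40. The region in Jarid2, a subunit of the Polycomb complex PRC2, varied more, with 10.4, 12.2, 15.5 and 15.6. By general knowledge the letters of the Il31ra, Gphn, Cmss1 and Jarid2 regions match the large ribosomal subunit RNA, which is encoded by repeated genes. A complete ribosomal gene was not used here, and its part in their signal was not tested.

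The region in Mxi1, in contrast, had 13.4, 14.7, 21.2 and 12.1, and that in Ccnd3 had 11.9, 14.1, 17.0 and 10.6, with replicate 3 the highest in both. The region in Mnt, another MYC antagonist, had 9.31, 15.1, 20.4 and 14.9. It lay 1.08 kb from the nearest transcript 5′ end, just past the 1 kb limit, and the Mxi1 region lay 1.16 kb from one. Both genes belong to the MAX network, in which they oppose MYC. The regions in Myo18a, an unconventional myosin gene, and in Gm44511, a gene that overlaps Klrb1c in the NK receptor complex, had mean signals of 11.9 ± 2.30 and 11.3 ± 2.70 (SD, n = 4). The Gm20388 region (14.2 ± 3.95) lies in the first intron of a readthrough gene, 1674.7 kb from its 5′ end, and 3.66 kb from the nearest transcript start of any gene.

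Genes of NK function were grouped in lists that had been chosen with earlier results of these data known, so their counts are descriptions. Over all protein-coding genes there were 9.22 recurrent intronic regions per Mb, and the median gene had 0. A recurrent region was present in 3914 of 18384 genes with eligible intron and in 28.2% of those with at least 5 kb of it. NK receptors and adaptors had 28.2 per Mb, with a recurrent region in 7 of 22 genes (13 regions). Cytotoxic effectors and secreted factors had 52.5 per Mb, in 5 of 19 genes (9 regions). NK transcription factors had 36.9 per Mb, in 14 of 22 genes (73 regions). Cytokine receptors and trafficking genes had 39.9 per Mb, in 10 of 20 genes (22 regions), and genes of lymphocyte signalling 34.3 per Mb, in 25 of 29 genes (138 regions). The share of genes with a region in the receptor and effector lists was thus near that over all genes, while transcription factors, cytokine receptors and signalling genes had larger shares, as had B cell genes with 8 of 19. Srgn alone had 4 of the 9 effector regions. A start peak in at least 3 libraries was present in 16 of 22, 19 of 20, 20 of 22 and 15 of 20 genes of the 4 NK lists. Over all genes it was present in 11598 of 20807. List densities were not compared with those of open-start genes alone.

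Among receptors, Slamf7 had 1 intronic region, with a signal of 3.17, 4.11, 6.39 and 3.23 in replicates 1 to 4. Cd160, a receptor for HVEM and class I molecules, had 2 recurrent regions, the stronger at chr3:96812761-96812960 with 3.16, 3.65, 4.59 and 2.12. Cd244a, the SLAM receptor 2B4, had 3 regions in its first intron that were found in all 4 libraries, the strongest with 1.42, 1.40, 4.61 and 1.44. Fcer1g, the signalling adaptor of CD16 and NKp46, had one with 1.41, 1.64, 4.72 and 1.80. In Cd244a and Fcer1g the 3 other libraries lay close together and replicate 3 far above them. Itga2, the integrin chain CD49b, had 4 recurrent regions of 11. Ncr1, which encodes NKp46, had 3 intronic regions, all in replicate 3 alone, although its start was open in all 4 libraries.

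Among effectors, the region in Srgn had 1.48, 1.73, 1.94 and 0.865, with replicate 3 close to replicate 2. Prf1, the pore-forming protein perforin, had a single region in its intron 2 with 1.07, 0.946, 2.76 and 1.00. Rab27a, the GTPase that docks cytotoxic granules, had 2 recurrent regions, the stronger at 1.15, 1.04, 2.22 and 1.11. For both, the signal in replicate 3 was above the range of the others. Stx11, a syntaxin of granule release, and Tnfsf10, which encodes TRAIL, had 1 recurrent region each.

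Among transcription factors, Bach2 had 12 recurrent regions of 26, and the printed one had 5.14, 7.27, 13.9 and 11.8, the strongest of any listed gene. Runx3, a RUNX factor of cytotoxic lymphocytes, had 5 recurrent regions, the strongest at chr4:135169181-135169440 with 3.34, 3.66, 8.01 and 3.36. Ikzf1, which encodes Ikaros, had 9 recurrent regions, 8 of them in later introns, and its strongest had 2.73, 3.51, 6.30 and 2.80. Runx1 had 10, all in later introns, and its strongest had 3.87, 3.80, 4.34 and 2.62. Tbx21, which encodes T-bet, had 2 regions found in all 4 libraries, both in its first intron, with its start open in 2. Tox had 7 recurrent regions, 6 in the first intron, and Ikzf3 had 4, none of them in replicate 4. Ikzf2 had 8 regions, all in replicate 3 alone.

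Among cytokine receptors, Il18r1 had 4 recurrent regions of 10, and the printed one had 1.60, 1.65, 4.87 and 2.06. Il12rb2, a chain of the interleukin-12 receptor, had 1 recurrent region with 1.40, 1.65, 4.61 and 1.32. Il21r had 1 with 2.01, 2.01, 3.64 and 2.31, and Cx3cr1, the receptor for fractalkine, had 5, the strongest with 1.42, 1.12, 4.51 and 2.59. Replicate 3 was the highest in each. Tgfbr2, a chain of the receptor for transforming growth factor beta, had 5 recurrent regions. In the signalling list, Prkch (4.28, 4.55, 10.7 and 3.98) and Stat4, the transducer of interleukin-12 signals with 10 recurrent regions (4.04, 4.45, 10.1 and 3.75), had the strongest regions. Stat5b, which signals below interleukin-2 and interleukin-15, had 3.60, 4.03, 7.40 and 4.48, and Inpp5d, the inhibitory phosphatase SHIP1, had 3.50, 4.19, 7.03 and 4.71.

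Other NK genes had no intronic region, most of them with an accessible start and many with little eligible intron. In the 4 NK lists, with 22, 19, 22 and 20 members that have eligible intron, 29 members had no intronic region in any library. Over all genes with eligible intron, 6729 of 18384 had one. A start peak in all 4 libraries was present in 22 of the 29, and Klra8, Zfp683, Klrb1c, Ccr2, Klrd1, Il12rb1 and Klra1 had one in 0 to 3. Over all genes, 55.7% had a start peak in at least 3 libraries, and the share with one in all 4 was not computed. Cd96, a receptor of the nectin-binding group, was the longest with 81.6 kb of eligible intron, and Itgal, an integrin chain of LFA-1, had 28.9 kb. Il2rb, the shared chain of the interleukin-2 and interleukin-15 receptors, had 9.63 kb, Ifnar1 12.9 kb, Klrc1, an NKG2 receptor, 10.3 kb and Irf8 7.36 kb. All 6 had a start peak in all 4 libraries. Gzmb, Ifng, Eomes and Tyrobp had between 1.01 and 3.45 kb of eligible intron, so little could be seen there. Ccl3, Ctsw, Bhlhe40 and Klf2 had only between 0.011 and 0.501 kb, so a missing region says even less in them.

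Genes of other cell types had recurrent intronic regions as well. T cell genes had 23.8 per Mb in 6 of 19 genes, myeloid genes 18.7 per Mb in 5 of 15, B cell genes 11.8 per Mb in 8 of 19, and long neuronal genes 0.467 per Mb in 5 of 20. Housekeeping genes had 0 recurrent regions in 0.136 Mb of eligible intron over 13 genes, and 7 regions in fewer libraries. Lef1 and Tcf7, factors of T cells that NK progenitors also use, had strongest regions of 3.43, 3.10, 8.08 and 3.00, and 2.86, 2.32, 7.91 and 3.48. Cd247, the zeta chain that NK receptors share with the T cell receptor, had 2.19, 2.64, 7.08 and 3.61. In these genes replicate 3 was again the highest. It was not in Bcl11b of the T cell list, with 1.49, 1.90, 1.77 and 1.16. Nor was it in Mrc1 and Flt3 of the myeloid list.

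B cell genes showed another pattern across libraries. The strongest regions had 1.68, 2.54, 1.495 and 1.70 in Blnk, a B cell adaptor, and 0.881, 1.08, 0.748 and 0.654 in Ebf1, a B lineage factor, with replicate 2 the highest in both. Pax5, the B lineage factor, had 1.40, 1.37, 2.10 and 1.15. Per Mb of eligible intron, B cell genes had 13.5, 16.1, 12.7 and 12.7 intronic regions in replicates 1 to 4, while NK receptor genes had 30.4, 30.4, 78.2 and 23.9 and all genes 10.7, 11.9, 22.0 and 7.78. Replicate 3 was thus the highest library for all genes and for NK receptors but not for B cell genes, and it also had the fewest open B cell markers. Cells of different types and differences in depth cannot be told apart here.

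**Figure D2:**
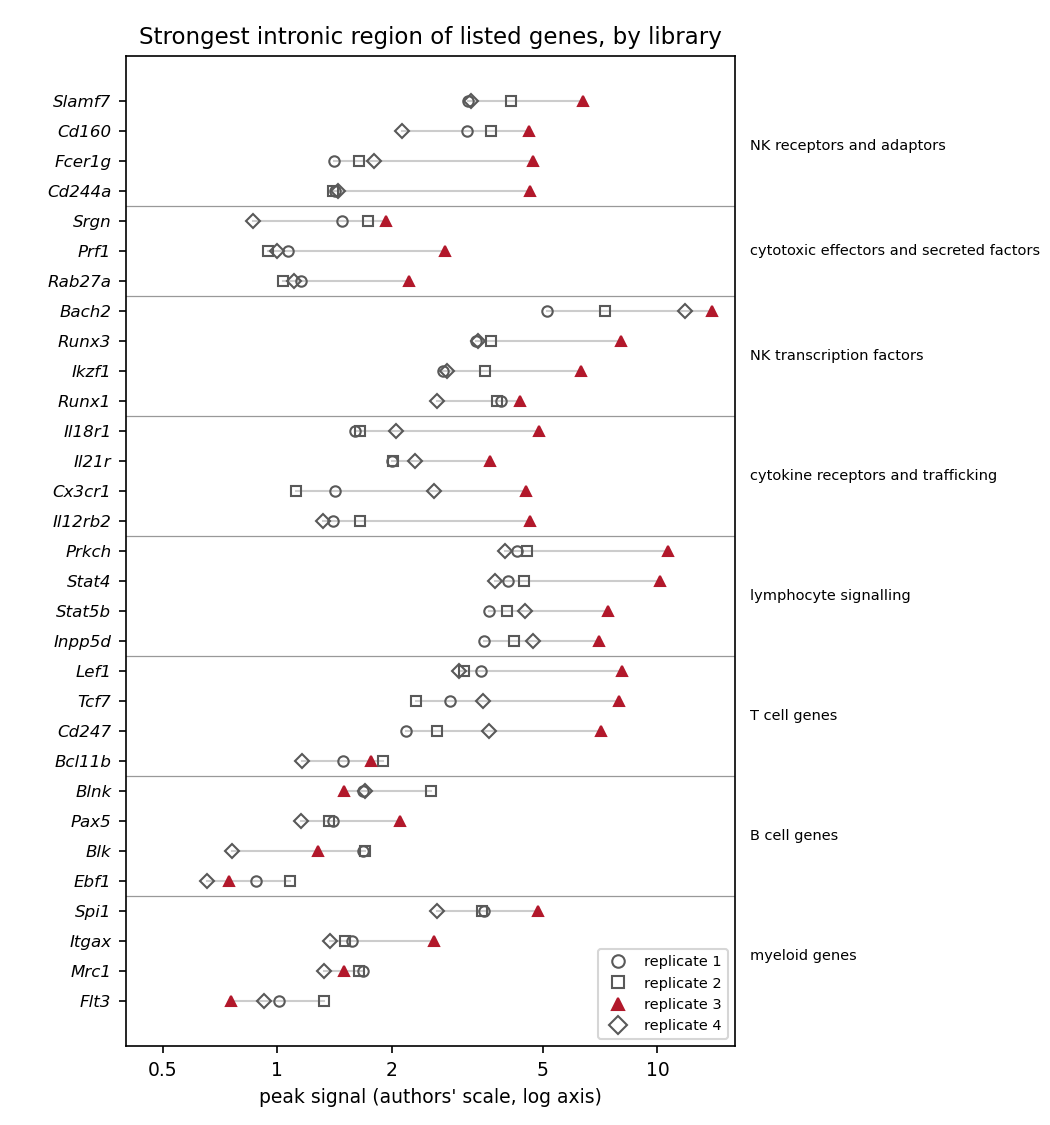
Peak signal on the authors' scale (log axis) of the strongest intronic region of up to 4 genes of each list, with 1 symbol per library and a line over the range. Replicate 3, filled, is the highest for each of the NK, cytokine receptor and signalling genes shown. It is not the highest for Bcl11b among T cell genes, Blnk, Blk and Ebf1 among B cell genes, or Mrc1 and Flt3 among myeloid genes.

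**Figure D3:**
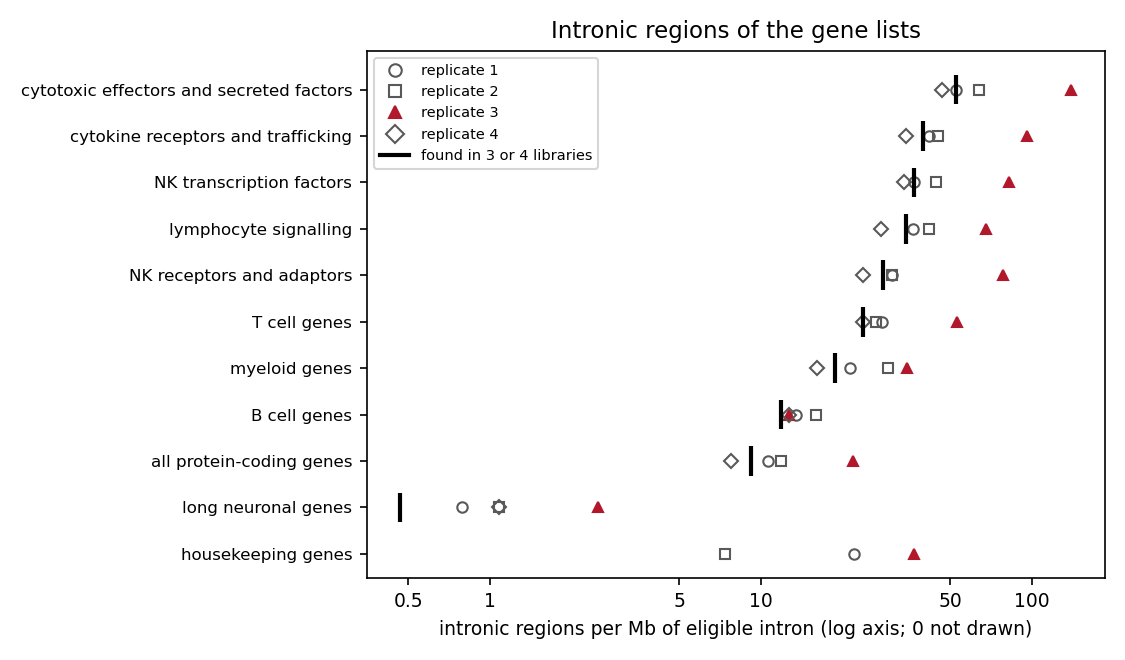
Intronic regions per Mb of eligible intron (log axis) for each gene list and for all protein-coding genes, by library (symbols) and for regions found in at least 3 libraries (bars). NK lists lie between 28.2 and 52.5 recurrent regions per Mb against 9.22 over all genes, long neuronal genes lie at 0.467, and values of 0 (housekeeping genes) are not drawn. The value over all genes includes hosts with a closed start, which are less frequent in the NK lists.

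The sequence at intronic peak centres differed from the intron beside them. Windows of 150 bp at peak centres were searched on both strands for 24 short motifs, and windows 1 kb outside the regions served as the flank. GC content was 51.9% at peaks and 44.9% in the flank, and 12.0% and 25.6% of bases were masked as repeat. A CTCF match was found in 9.85% ± 1.60 of peaks (SD, n = 4) and 0.0569% of flanking windows. The ETS motif (AGGAAGTG) was found in 7.01% ± 0.881 against 1.14%, the RUNX motif (TGTGGTTT) in 4.32% ± 0.669 against 1.10%, and the T-box motif (AGGTGTGA) in 2.05% ± 0.249 against 0.784%. The composite in which an ETS and a RUNX motif overlap was found in 0.595% ± 0.084 against 0.012%. The AP-1 motif (TGANTCA) was found in 8.10% ± 1.37 against 4.41%, and the KLF motif (CCACACCC) in 2.91% ± 0.419 against 1.27%. The GATA motif (AGATAAG) was less frequent than in the flank, 1.55% ± 0.245 against 2.15%, and YY1 (AAGATGGC) and STAT (TTCCNGGAA) matches were about as frequent as there. A match says only that these letters are in the window. The E-box (CAGGTG) and the T-box motif share the letters AGGTG, so 1 stretch can match both.

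Compared with intergenic peaks, intronic peaks held fewer CTCF matches and more ETS, RUNX, T-box, AP-1 and KLF matches. The CTCF share was 12.7% ± 1.48 in intergenic peaks, higher than in introns by 2.83 points ± 0.165 in all 4 libraries. ETS, RUNX, T-box, AP-1 and KLF shares were 6.08%, 3.95%, 1.62%, 7.40% and 2.47% in intergenic peaks, each lower than in introns in all 4 libraries (exact sign-flip permutation test, two-sided p = 0.125 for each). Peaks at transcript starts held 2.40% CTCF, 3.25% ETS and 1.17% RUNX matches, below both. Other motifs did not share this order. STAT matches were found in 0.358% of intronic and 0.527% of intergenic peaks, lower in introns in all 4 libraries. GATA matches were also lower in introns in all 4 libraries. The ETS-RUNX composite and the IRF family motif were higher in introns in 2 of 4 libraries.

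First and later introns differed most in CTCF. A match was found in 5.70% ± 0.965 of first-intron peaks and 12.1% ± 1.83 of later-intron peaks, a difference of -6.40 points ± 0.892 that was negative in 4 of 4 libraries (SD, n = 4, exact sign-flip permutation test, p = 0.125). The difference was -3.74 ± 1.03 points at 1 to 5 kb from the 5′ end, -10.03 ± 1.56 at 5 to 20 kb, -6.44 ± 0.748 at 20 to 100 kb, and -1.20 ± 1.56 beyond 100 kb (exact p = 0.125 for the first 3 and 0.375 for the last). Over all distances, first minus later introns was -0.0073 ± 0.105 points for RUNX and 0.059 ± 0.1204 for T-box, but this joined differences of opposite sign. For RUNX it was 1.23 ± 0.704, 0.551 ± 0.187 and 0.420 ± 0.087 points up to 5, 20 and 100 kb, above 0 in all 4 libraries, and -1.33 ± 1.09 beyond 100 kb, below 0 in all 4 (exact permutation p = 0.125 for each). For T-box it was 0.493 ± 0.126 at 20 to 100 kb, above 0 in 4 of 4 libraries, and -0.245 ± 0.376 at 1 to 5 kb, above 0 in 2 of 4. KLF was higher in first introns, 3.34% against 2.59%, as was CREB (TGACGTCA), 0.916% against 0.450%, both in 4 of 4 libraries. For ETS the sign depended on distance: first minus later introns was -2.48 ± 1.27 points at 1 to 5 kb and positive at 5 to 20 kb (2.47 ± 0.726) and 20 to 100 kb (2.12 ± 0.580).

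The state of the host start also went with the motifs. The share of peaks with a CTCF match in hosts with an open start minus that in hosts with a closed start was -6.25 points ± 0.132. The same difference was 1.98 ± 0.616 points for ETS and 0.701 ± 0.195 for T-box (SD, n = 4, each in 4 of 4 libraries, exact sign-flip permutation test, p = 0.125). RUNX differed by 0.385 ± 0.398 points, within the spread. The lower CTCF share of first introns held under both states, with differences of -6.33 ± 0.996 points under open and -4.41 ± 1.05 under closed starts.

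**Figure D4:**
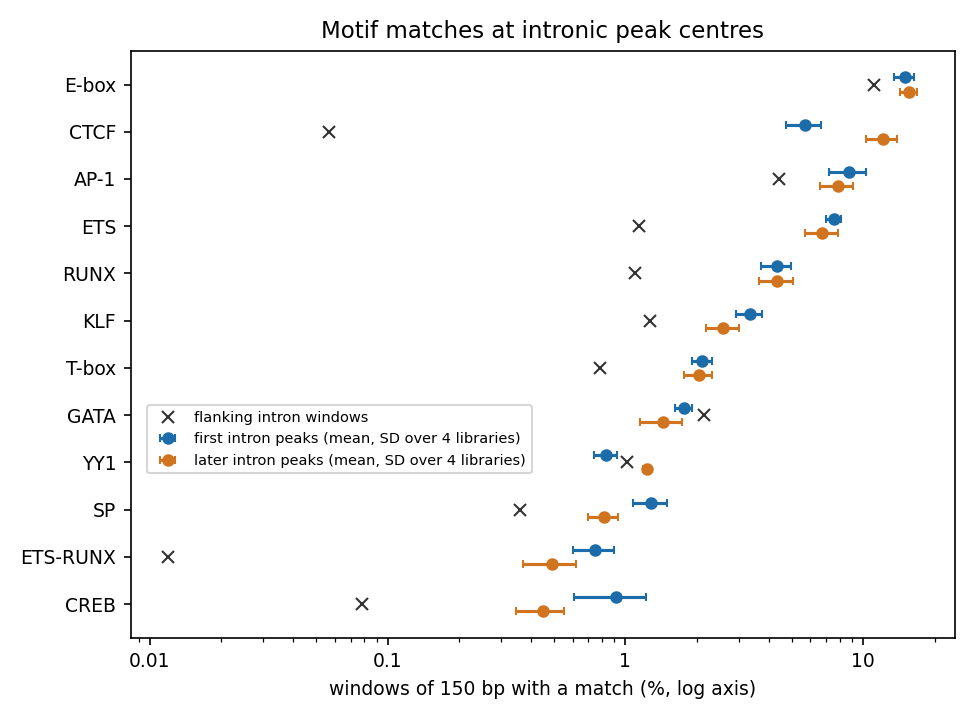
Share of 150 bp windows with a motif match (log axis) at first-intron and later-intron peak centres (mean and SD over 4 libraries) and in flanking intron windows (crosses). CTCF stands apart with 5.70% in first and 12.1% in later introns against 0.0569% in the flank, while RUNX and T-box shares of both kinds of intron, taken over all distances, lie within their spread.

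Regions with a CTCF match were the most often shared. Of 1525 intronic regions that held one, 65.2% were recurrent, against 37.3% of all intronic regions and 31.2% of the 13446 regions with a match to none of CTCF, ETS, RUNX, T-box, AP-1, KLF and CREB. The share was 59.2% for CREB (120 regions), 51.6% for KLF, 50.9% for ETS, 46.1% for T-box, 45.0% for AP-1 and 43.9% for RUNX. ETS regions were also wider, with a median of 260 bp against 200 bp for CTCF and for all, and a wider region has more room for a match.

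The surplus of replicate 3 was smallest in CTCF regions. Among regions found in all 4 libraries, those with a CTCF match had a median signal of 1.48, 1.51, 1.79 and 0.875 in replicates 1 to 4, and those with a RUNX match 1.22, 1.27, 2.77 and 1.08. The median ratio of replicate 3 to the mean of the others was 1.38 for CTCF, 2.08 for ETS, 2.21 for T-box, 2.28 for AP-1 and 2.29 for RUNX, beside 1.78 for all regions. Replicate 3 was the highest library in 66% of the CTCF regions and 94.6% of the RUNX regions. Among replicates 1, 2 and 4, in contrast, the medians of CTCF regions lay farther apart than those of RUNX regions. The source of these differences was not tested.

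Footprints lay over some motifs and not over others. Of CTCF matches in intronic peaks, 50.2% ± 6.74 lay wholly inside a footprint of the same library, against 1.82% ± 0.399 of all windows of that length (SD, n = 4). The shares were 55.2% ± 10.9 for NRF1, on few matches, 35.5% ± 10.5 for CREB and 20.4% ± 4.11 for SP (GGGGCGGGG), against 2.40%, 3.29% and 2.79%. E-box and YY1 matches followed with 10.7% ± 1.40 and 10.01% ± 4.42, against 4.76% and 3.29%. All of these were above the windows in 4 of 4 libraries (exact sign-flip permutation test, p = 0.125).

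Single ETS, T-box and RUNX motifs were covered at about the level of any window on average, but above it in replicate 3. ETS matches lay in a footprint in 3.02% ± 1.18, T-box matches in 3.28% ± 1.54 and RUNX matches in 3.86% ± 2.91, each against 3.29% ± 0.597 of windows, and each was above the windows in 1 of 4 libraries. That library was replicate 3 each time, with 4.66% for ETS, 5.37% for T-box and 8.19% for RUNX against 3.99% of windows. AP-1 matches were below their windows in all 4 libraries, 2.91% ± 0.917 against 4.03%. The ETS-RUNX composite lay in a footprint in 4.08% ± 1.69 against 2.08% of windows, and KLF matches in 5.32% ± 2.05 against 3.29%, both above the windows in 4 of 4 libraries (exact sign-flip permutation test, p = 0.125). The printed RUNX, ETS, T-box, AP-1 and KLF sites are exceptions by construction, since they were chosen for a footprint in all 4 libraries.

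**Figure D5:**
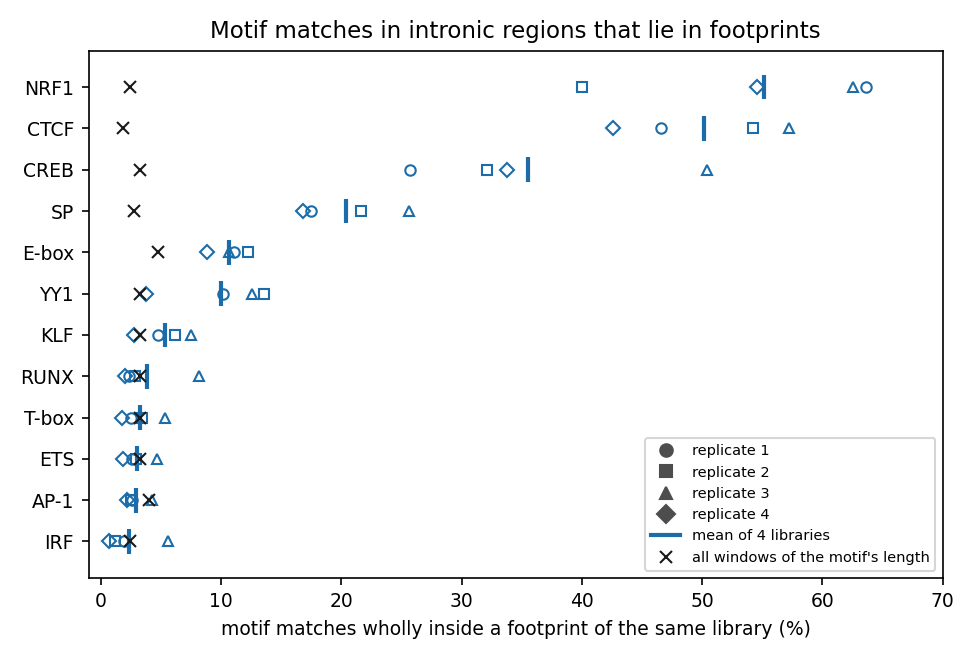
Share of motif matches in intronic peaks that lay wholly inside a footprint of the same library, by library (symbols) and as a mean (bars), beside the share of all windows of the same length (crosses). NRF1, CTCF and CREB lie between 35.5% and 55.2% on average, while the means of RUNX, T-box, ETS and AP-1 lie between 2.91% and 3.86%, close to their windows. In replicate 3, RUNX lies at 8.19% against 3.99% of windows.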

How the data were processed

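The 4 DNase-seq libraries of NK cells form 1 group by the cell type label. Per the deposited readmes, each library's files were derived from its own filtered alignments to mm10. For the aligner, peak caller and footprint caller, names and versions were not given in the sources used here. In the authors' peak lists each peak has a signal of unstated unit and scaling, without read counts, which allows no counting interval. The longer of each library's lists was used. The deposited false discovery rates, a p-value or q-value like measure, list only bases under 0.05. The deposited footprints carry the constant 0.01 in another column, so only their positions were used.

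Genes were those of GENCODE M21 (GRCm38.p6), and sequences came from the RefSeq copy of that assembly. Against RefSeq's own annotation, 1406 intronic regions (6.89%) overlapped an exon or lay within 1 kb of a start. A region in a gene body that overlaps another gene's was kept, which applied to 651 regions inside more than 1 protein-coding gene and 693 overlapping a noncoding gene. Densities divide peaks by eligible intron sequence. Each value was computed per library and tested with an exact two-sided sign-flip permutation test over 4 libraries, whose smallest p is 0.125, so 0.05 cannot be reached. Each p-value concerns only whether the mean within-library difference departs from 0 over these libraries. It is 0.125 whenever all 4 differences have the same sign, whatever their spread. The first-to-later density, signal and footprint results, the sharing difference and the permutation test were tested on simulated libraries of equal peak number. The values by host start, by distance and by motif were not tested in this way.

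Named genes are the 10 hosts with the most recurrent regions, the 10 with the most per Mb (at least 5 recurrent regions and 5 kb of eligible intron), the hosts of the 10 strongest regions, up to 4 members per list with the strongest region found in all 4 libraries, and NK genes without a region. Hosts that contain 5 or more other protein-coding genes were left out of the first 2 sets. Other listed genes were named after their values were seen. The members, gene lists and motifs were chosen with earlier results of these data known.

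Alternatives were the shorter peak lists, other distances to 5′ ends, other choices of longest transcript and host, equal peak numbers, other overlap rules and each library left out. Near-identical sequence was found with blastn 2.17.0. Other tools were Python 3.11.15, numpy 2.4.6, pandas 2.3.3, scipy 1.17.1, pysam 0.24.0, samtools 1.23.1, bedtools 2.31.1 and matplotlib 3.10.9.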

Additional observations from a re-analysis of the deposited data

Results flagged for a closer look

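Among the strongest intronic regions of the named genes, 12 of 45 had 1 library far from the other 3, with a gap to the nearest library past Dixon's critical share of the whole range. Chance alone gives such a gap in about 1 in 20 unrelated groups of 4 values. These regions share the same 4 libraries and were chosen by their mean signal over them. That rate therefore cannot be set against their count. In 11 of the 12, replicate 3 was the high library. Its signal was 4.72 in Fcer1g, 4.61 in Cd244a, 2.76 in Prf1 and 2.22 in Rab27a. It was 8.01 in Runx3, 4.87 in Il18r1 and 4.61 in Il12rb2, 10.7 in Prkch and 10.1 in Stat4, 8.08 in Lef1 and 2.58 in Itgax. Replicate 3 was the highest library in 35 of the 45 regions. It was also the highest in 82.4% of all intronic regions found in all 4 libraries, so this is not particular to the named genes. The exception was the region in Pcdh9, a protocadherin gene, where replicate 3 was low at 2.5 and the others lay between 4.74 and 4.97. That sequence was found at 1793 other places at 90% identity or more. Of the 59 values tested in all, the other 14 were summary values, and 0 of them had such a gap.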

How the results depend on the processing

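Of 103 alternative values over 10 results, 88 kept their direction (for counts and shares, moved little), but not always their size. The rule for counts was loose: 26752 intronic regions without a distance limit, beside 20401, was taken as little moved. The intronic share of regions was judged against the SD of the libraries' own peak shares (3.65). The first-to-later density ratio stayed between 1.46 and 2.13, the ratio between hosts with an open and a closed start between 3.35 and 4.42, and the CTCF difference between -8.01 and -6.19 points, with no sign change in 11 alternatives each. The sharing difference ranged from -3.81 to -0.88 points and the intronic-to-intergenic log2 signal from -0.13 to -0.031. The number of intronic regions was 13061 from the shorter peak lists and 10591 from equal numbers of the strongest peaks, and ranged from 12556 (without replicate 3) to 19997 with 1 library left out. The intronic share of regions was 35.2% without a distance limit and 22.9% with equal peak numbers, and ranged from 22.8% (without replicate 3) to 27.2%. Recurrent regions made up 36.5% without a distance limit and 55.1% with equal peak numbers. Without a distance limit, regions near starts enter the count. The first minus later difference in footprinted peaks turned to -1.23 points (shorter lists), -7.58 (no distance limit), -0.0087 (genes holding 5 or more others left out) and -1.39 (equal peak numbers). It ranged from -0.45 to 0.61 with 1 library left out, negative without replicate 3 and without replicate 4. The log2 signal ratio of first to later introns was -0.0073 without a distance limit. The cause of these changes was not tested. Barring RefSeq exons and starts, an alternative added after seeing the data as were those for host starts, CTCF and recurrence, changed no direction. Pairing of libraries between groups was not possible, because the 4 libraries form a single group. The comparisons above were each made within a library and so were paired by library. The unknown read depth limits how far regions missing from a library can be read as closed.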
